A study of Oryza sativa with 12 samples.

Results

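The morning-type clock MYB genes are 3 loci that the deposited tables of listed genes name by their identifiers: OsLHY (LOC_Os08g06110, annotated as LHY protein), LOC_Os02g46030 and LOC_Os06g51260, both annotated as MYB-related transcription factor (CCA1). LOC_Os02g46030 is called the CCA1-like MYB gene and LOC_Os06g51260 the MYB gene below. They were taken by identifier from 2 tables, one of 105 genes for the glume primordium differentiation stage (G) and one of 201 genes for the stage at which pistil/stamen primordia form (P), together 275 loci. All 3 were listed at G, and 1 of them, the MYB gene, was listed at P. The authors had listed a gene where its mean signal under short days (SD) was at least 2 times or at most 0.5 times that under long days (LD), so the difference between SD and LD chose these genes and is described here without a test.

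The plants were Nongken 58S, a photoperiod-sensitive male sterile mutant of the japonica rice cultivar Nongken 58. All had first been given SD to induce flowering, and were divided between the day lengths once the inflorescence had reached the secondary branch differentiation stage. The SD groups, G-SSD2 and P-SSD2, had nights of 14 h after 10 h of light, and the LD groups, G-SLD2 and P-SLD2, nights of 9 h after 15 h of light, each group with 3 biological repeats of the second fully expanded leaf on Affymetrix rice arrays. Every leaf was harvested at 02:00 h, within the dark period of both day lengths. A level here is thus that of 1 moment of the daily cycle, and the time of each gene's peak cannot be read from these arrays. With nights of 14 h and 9 h, that hour lay at a different distance from dusk, from dawn or from both in SD and LD. The hours of lights on and off are not known here. A difference in level between SD and LD therefore cannot be told apart from a difference in the timing of the daily course. The fertile parent Nongken 58 was not on these arrays, and how many plants made up a repeat is not known here. The signal of a whole leaf does not separate fewer cells of a type from less RNA per cell.

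In Arabidopsis, LHY and its close relative CCA1 encode transcription factors with a single MYB repeat whose transcripts accumulate towards dawn. Their proteins bind the promoters of evening genes, such as TOC1, GI and LUX, and repress them, and the evening genes act back on LHY and CCA1. Rice has OsLHY in this place, with OsPRR1 as the homologue of TOC1. Other single-repeat MYB proteins related to CCA1 are known in Arabidopsis, and for LOC_Os02g46030 no role in rice is given here beyond its annotation. The paper counts LOC_Os06g51260 among its clock genes and places it in the circadian rhythm pathway by a pathway search. The name morning-type comes from this background and could not be checked on arrays from a single hour of harvest. For OsLHY the paper followed the daily course in leaves by quantitative PCR. It calls the gene dawn-phased, with repression by day and activation at night.

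At the glume stage all 3 genes had higher signals in SD than in LD on every array. OsLHY read 3516, 3463 and 2801 in repeats 1 to 3 of G-SSD2, and 1292, 1686 and 1038 in those of G-SLD2. Its lowest SD signal was 1.66 times its highest LD signal, so the groups did not overlap. The means were 3260 ± 399 in SD and 1339 ± 326 in LD (SD of the repeats, n = 3 each), a ratio of 2.44 and a log2 difference of 1.30 with a standard error of 0.24.

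The CCA1-like MYB gene read 3033, 2645 and 3012 in repeats 1 to 3 of G-SSD2. In G-SLD2 the same repeats read 1228, 1522 and 1077. These groups did not overlap either, with the lowest SD signal at 1.74 times the highest LD signal, the widest gap of the 3 genes at this stage. Its means were 2897 ± 218 in SD and 1276 ± 226 in LD (SD of the repeats, n = 3 each), a ratio of 2.27 and a log2 difference of 1.20 with a standard error of 0.21. It had the smallest relative spread in both groups, with an SD of 7.53% of the mean in G-SSD2 and 17.7% in G-SLD2.

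The MYB gene read 771.8, 672.8 and 613.9 in repeats 1 to 3 of G-SSD2. In G-SLD2 it read 149.4, 475 and 162.2, so 1 LD array lay far above the other 2. The groups still did not overlap, but the gap was the narrowest of the 3, with the lowest SD signal at 1.29 times the highest LD signal. The means were 686 ± 79.8 in SD and 262 ± 184 in LD (SD of the repeats, n = 3 each), a ratio of 2.62 and a log2 difference of 1.60 with a standard error of 0.47. Its spread in LD was 70.3% of the mean, the fifth highest of the 105 listed genes, where the median was 28.7%. Its spread in SD was 11.6%.

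**Figure D1:**
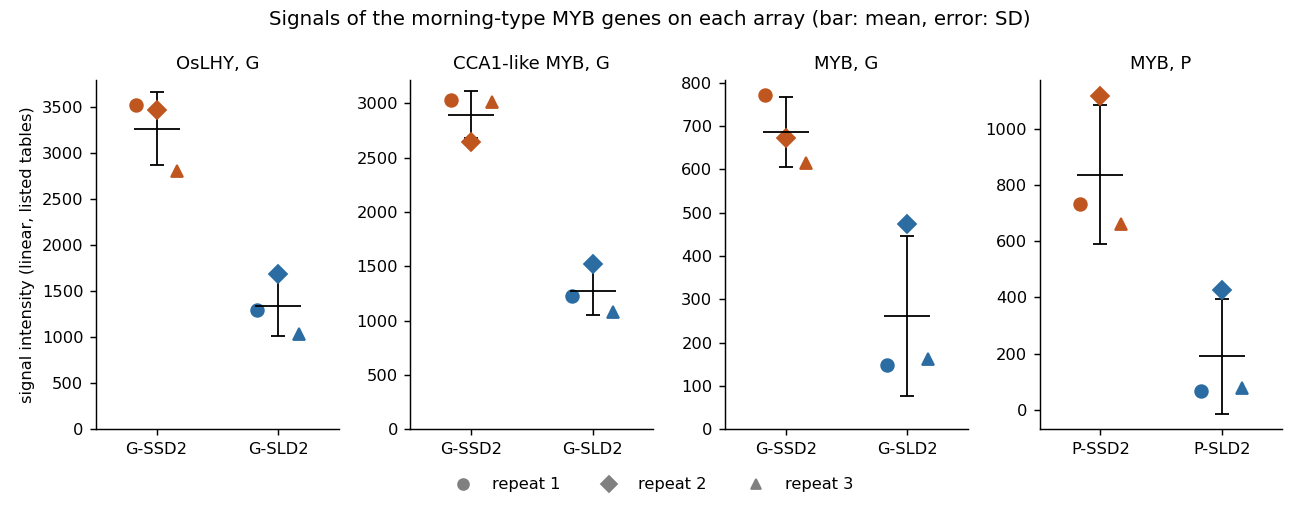
Signal intensity (linear) of each gene on each array in the tables of listed genes, with the mean (bar) and SD (error bar) of 3 repeats per group. In all 4 panels the SD arrays lie above the LD arrays, and repeat 2 is the highest LD array, at 475 at G and 427.4 at P for the MYB gene against 67.5 to 162.2 on its other LD arrays.

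At the pistil/stamen stage the MYB gene was again higher in SD on every array. It read 733.6, 1117 and 659.3 in repeats 1 to 3 of P-SSD2. In P-SLD2 it read 67.5, 427.4 and 80.1, so the same repeat number as at G was the high one in LD, and here it was the highest in SD too. The groups did not overlap, and the lowest SD signal was 1.54 times the highest LD signal. The ratio of the means was 4.36, from 837 ± 246 in SD and 192 ± 204 in LD (SD of the repeats, n = 3 each), and the log2 difference was 2.62 with a standard error of 0.70. The LD spread of 107% of the mean was the fourth highest of the 201 listed genes, where the median was 23.2%.

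That groups do not overlap is little more than the listing itself implies. Of the listed genes higher in SD, 98.2% had groups that did not overlap at G and 85.7% at P, and of those lower in SD 93.8% and 90.3%. Over the whole array, after quantile normalization of the separate table of all probe sets, 1.58% of the 25360 probe sets kept were at least 2-fold higher in SD at G and 3.45% at P. Those at least 2-fold higher without overlap were 0.848% at G and 1.01% at P, and those at least 2-fold higher with an unadjusted limma p under 0.05 were 0.662% and 1.24%. With a Benjamini-Hochberg adjusted limma p under 0.05 there were only 2 probe sets at G and 2 at P, in either direction. The genes were chosen from this contrast, so these shares and counts are given as background only. No file used here gives the gene of a probe set in that table. OsLHY and the CCA1-like MYB gene are therefore without a value at the pistil/stamen stage here, and that they were not listed there does not show that they were equal in SD and LD. For OsLHY the paper reports that its array comparison at that stage detected no difference.

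Among the 57 genes listed as higher in SD at G, with a median ratio of 2.37, the MYB gene ranked 19, OsLHY 24 and the CCA1-like MYB gene 36 by ratio. The ratios just inside the authors' threshold were 2.00 for LOC_Os01g23990 and 2.01 for LOC_Os07g44330, a pyruvate dehydrogenase kinase gene. At P the MYB gene ranked 42 of 98, where the median ratio was 3.57. The entries there just inside the threshold were LOC_Os01g21420 at 2.01 and LOC_Os01g31220 at 2.02. The 3 genes thus lay in the middle of the lists, well below the florigen gene Hd3a at 73.1 at G and 39.2 at P.

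**Figure D2:**
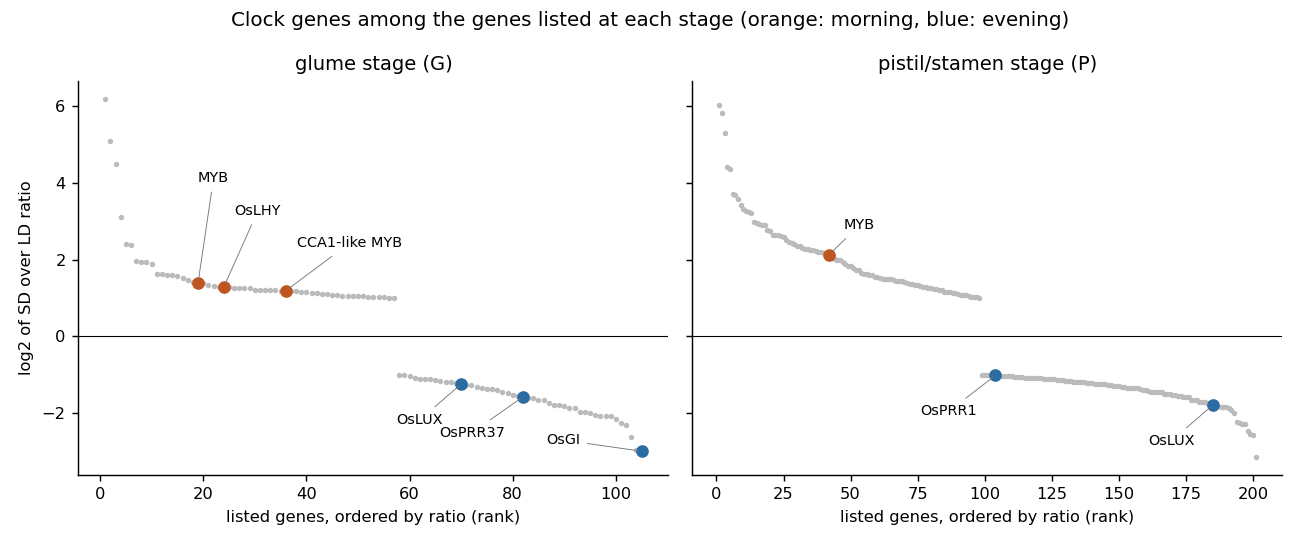
Log2 of the SD over LD ratio of all listed genes in order of that ratio, with the morning genes in orange and the evening clock genes in blue. At G the MYB gene, OsLHY and the CCA1-like MYB gene are at ranks 19, 24 and 36 of the 57 genes higher in SD, and at P the MYB gene is at rank 42 of 98.

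Repeat 2 of the LD group was the highest LD array for every one of these genes, at both stages where the MYB gene was listed. Its signal was 1.45 times the mean of LD repeats 1 and 3 for OsLHY, 1.32 times for the CCA1-like MYB gene, and 3.05 times for the MYB gene at G. For the MYB gene at P it was 5.79 times. On its own, a highest LD signal in repeat 2 was common: 40.4% of the 57 genes higher in SD at G had it, and 38.8% of the 98 at P. Over the probe sets at least 2-fold higher in SD without overlap, the shares were 42.3% at G and 39.3% at P. The direction of the deviation in the LD arrays was thus shared with many other genes.

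The size of the deviation was less common. LD repeat 2 was at least 2 times the mean of the other LD repeats in 9 of the 57 genes higher in SD at G (15.8%) and in 9 of 98 at P (9.18%). Among the genes lower in SD it was so for 1 of 48 at G and 0 of 103 at P. The MYB gene ranked 4 of all 105 at G by this measure, after the genes of protein arginine N-methyltransferase 6 (LOC_Os10g34740, 4.46 times), of OsDof (LOC_Os01g15900, which encodes a zinc finger protein of the Dof type, 3.61 times) and of an amino acid-polyamine transporter (LOC_Os03g14910, 3.15 times). At P it ranked 3 of 201, after LOC_Os03g13830, a pentatricopeptide repeat protein gene singled out after its values were seen (17.6 times), and LOC_Os01g33710, of unknown function (10.2 times). The tables shared 30 loci, of which 2 had LD repeat 2 at 2 times or more at both, the MYB gene and LOC_Os01g21420, annotated as the pre-mRNA splicing factor SF2 (2.77 times at G and 2.11 times at P).

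**Figure D3:**
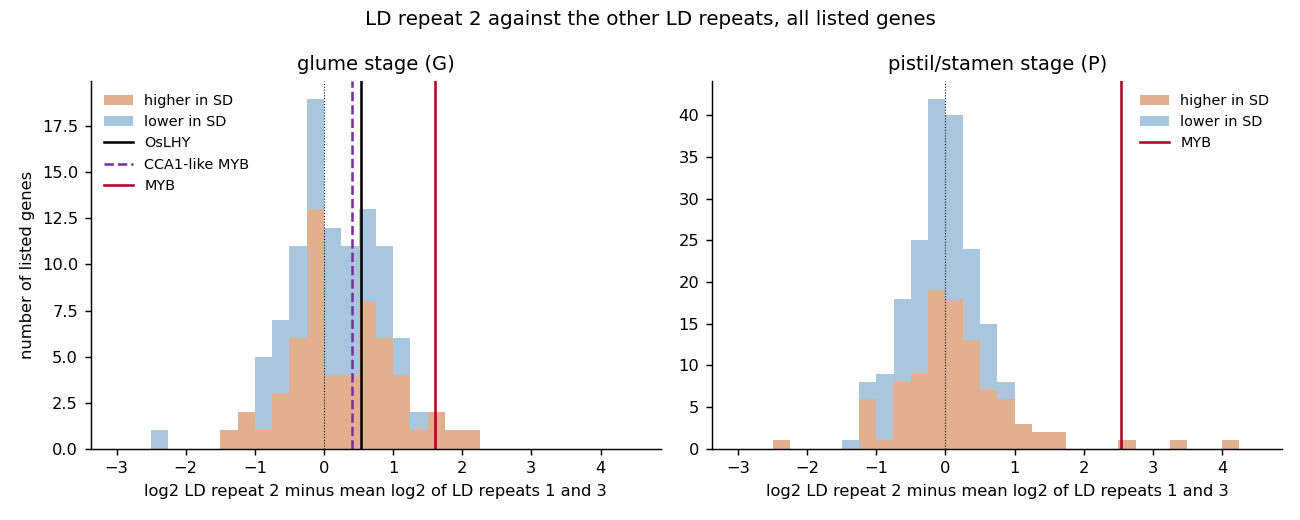
Number of listed genes (vertical axis) by the log2 signal of LD repeat 2 minus the mean log2 signal of LD repeats 1 and 3 (horizontal axis), with stacked bars for genes higher (orange) and lower (blue) in SD and the members as vertical lines. OsLHY (0.54) and the CCA1-like MYB gene (0.40) lie within the bulk at G, and the MYB gene lies in the upper tail at G (1.61) and at P (2.54).

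On G-SLD2 repeat 2 the log2 deviation from the group mean was 0.36 for OsLHY, 0.27 for the CCA1-like MYB gene and 1.07 for the MYB gene, and on P-SLD2 repeat 2 it was 1.69 for the MYB gene. After the median deviation of all listed genes on the same array was subtracted, the 4 values were 0.28, 0.19, 0.99 and 1.70. What set these leaves apart was not tested. In SD at G, repeat 1 was the highest array for all 3 genes, while the lowest was repeat 3 for OsLHY and the MYB gene and repeat 2 for the CCA1-like MYB gene.

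Because SD and LD carry the same repeat numbers, the ratio can also be read within a number. The arrays are not shown to be pairs at either stage. At G the deviations of the repeat 2 arrays from their group means had a correlation of -0.0015, over the probe sets kept. For OsLHY the ratio at G was 2.72, 2.05 and 2.70 in repeats 1 to 3. For the CCA1-like MYB gene it was 2.47, 1.74 and 2.80, and for the MYB gene 5.16, 1.42 and 3.78. Repeat 2 thus gave the smallest ratio for all 3 genes, as for 49.1% of the 57 genes listed as higher in SD at G. At P the MYB gene had 10.9, 2.61 and 8.24, again smallest in repeat 2, as for 32.7% of the 98 genes. Every one of the 12 ratios was above 1.

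**Figure D4:**
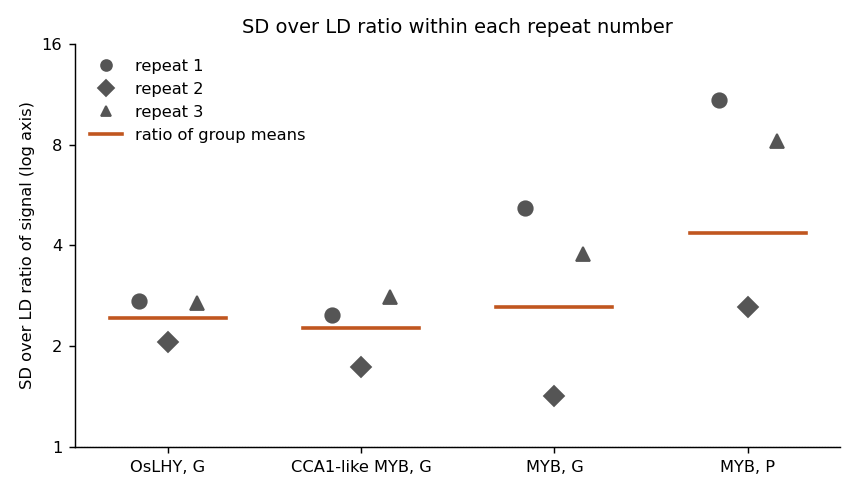
SD over LD ratio of the signals with the same repeat number (points) and ratio of the group means (orange line), on a log axis. Repeat 2 is the lowest point in each column, from 1.42 for the MYB gene at G to 2.61 for the same gene at P, and every point lies above 1.

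The ratio of the MYB gene depended most on LD repeat 2, which lowered it. Without G-SLD2 repeat 2 its ratio at G was 4.40, and without P-SLD2 repeat 2 its ratio at P was 11.3. Leaving out any 1 array moved it between 2.15 and 4.40 at G and between 3.30 and 11.3 at P. OsLHY stayed between 2.19 and 2.80 and the CCA1-like MYB gene between 2.11 and 2.51 without any 1 array. With medians in place of means the ratios at G were 2.68 for OsLHY, 2.45 for the CCA1-like MYB gene and 4.15 for the MYB gene, and at P the MYB gene had 9.16. The order of the 3 genes by their ratio at G, with the MYB gene first and the CCA1-like MYB gene last, was the same with means and with medians, but it was not stable. Within repeat 2 the MYB gene had the smallest ratio, within repeat 3 the CCA1-like MYB gene stood above OsLHY, and without G-SLD2 repeat 1 the MYB gene was last at 2.15, below the CCA1-like MYB gene at 2.23 and OsLHY at 2.39.

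The log2 ratio of the means of the MYB gene was 0.74 larger at P than at G. Among the 14 loci that both tables gave as higher in SD, 7 had the larger ratio at P. The size of the increase in the MYB gene varied with the arrays used. Its ratio at G without G-SLD2 repeat 2, 4.40, was close to the 4.36 at P with all arrays. Where both stages were treated alike, the ratio at P stayed the larger. Without LD repeat 2 of each stage it was 4.40 at G and 11.3 at P. With medians it was 4.15 and 9.16, and with geometric means 3.03 and 6.16. A normalization common to both tables is not stated, so only the ratios are set side by side, and the gene had been chosen from both contrasts.

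The likeness of other listed genes to each member was measured as the root mean square difference of log2 signals over the 6 arrays of a stage, each gene centred on its own mean, so that a small value means a similar course over the arrays. The CCA1-like MYB gene was closest to LOC_Os01g50030, the gene of phosphoethanolamine N-methyltransferase, an enzyme of choline synthesis, at 0.072. OsLHY came second among its 104 neighbours at 0.17, and LOC_Os08g08120, annotated as a transcription factor with zinc binding, followed at 0.17. OsLHY was closest to LOC_Os10g42780, an lrgB-like gene (0.15), whose identifier lacks its first letter in the table, then to LOC_Os01g50030 (0.16) and LOC_Os08g08120 (0.16), with the CCA1-like MYB gene next (0.17).

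The nearest genes of the MYB gene were others. At G it was closest to LOC_Os03g14910 (0.24), LOC_Os10g34740 (0.24) and LOC_Os01g21420 (0.29). OsLHY ranked 7 among its neighbours at 0.41 and the CCA1-like MYB gene 13 at 0.47. At P the closest of the 200 other genes were LOC_Os01g33710 (0.49), LOC_Os09g31130, a tonoplast dicarboxylate transporter gene (0.60), and LOC_Os05g44300 (0.67). All the genes named here as nearest to any of the 3 members had their highest LD signal in repeat 2. All these genes had been listed for a difference between the same arrays, so likeness over the arrays is partly fixed by the listing.

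Of a list of 16 clock genes, 6 were listed at G. The 3 listed of 4 morning genes were all higher in SD, and the 3 listed of 12 genes of the day and evening, called evening genes here, were all lower in SD. These were OsGI (LOC_Os01g08700), OsPRR37 (LOC_Os07g49460) and OsLUX (LOC_Os01g74020), homologues of the Arabidopsis clock genes GI, of the pseudo-response regulator family and of LUX. Over all genes listed at G, 57 were higher and 48 lower, 105 in all from an array of 57194 probe sets without controls. The 3 listed morning genes are the members, which were taken from the listed genes. That they were listed and differed was therefore fixed in advance, and the counts are no evidence about morning genes as a class. At P 3 of the 16 clock genes were listed, the MYB gene as higher and OsLUX and OsPRR1 (LOC_Os02g40510) as lower. Over all genes listed there, 98 were higher and 103 lower. The LD arrays in which the evening genes were highest were others: at G repeat 1 for OsGI and OsPRR37 and repeat 3 for OsLUX, and at P repeat 3 for both OsLUX and OsPRR1. OsGI read 432.4, 303.2 and 100.6 in repeats 1 to 3 of G-SLD2. OsLUX read 484.6, 442.1 and 995.7 in repeats 1 to 3 of G-SSD2, highest in repeat 3. OsGI and OsPRR37 had their lowest SD signals in that repeat, at 26.2 and 33.6, as did OsLHY and the MYB gene, whereas the CCA1-like MYB gene did not. OsDof was the only other gene of the fixed lists with LD repeat 2 at 2 times or more the mean of the other LD repeats, at 251.7 against 86.3 and 53.1 in repeats 1 and 3 of G-SLD2, and its ratio within repeat 2 was 2.93 against 9.77 and 8.99.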

How the data were processed

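RNA of 12 leaf samples was hybridised to Affymetrix GeneChip Rice Genome Arrays. The submitters' processing notes name GCOS 1.4. The tables of listed genes that the authors deposited hold linear signal intensity for 6 arrays each, which the methods say were normalized with the invariant set method of dChip. These tables also hold the authors' own fold (a ratio) and P value, which were not used. The sample columns of the table for G carry the letter P in the header and were taken as G because all their signals equal those under the G headers of the supplementary table. The other deposited table holds intensity for 57381 probe sets. It was log2 transformed and quantile normalized, because array medians ran from 6.92 to 9.18. After 187 control probe sets were left out, the 25360 kept were those whose signal lay at percentile 60 or higher on 3 or more arrays.

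Ratios are of group means of the listed signals. Log2 differences and standard errors came from limma (version 3.58.1, with R 4.3.3), by lmFit and a trended eBayes, on log2 signals of all listed genes of a stage, without a p-value, since the genes had been chosen by fold. The standard errors borrow spread from those same listed genes, so they too are a description and no measure of significance. Groups and repeat numbers came from the sample titles, and the number of arrays limits the precision. The limma step was checked on simulated data.

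The members and lists were chosen with earlier results of these data known. The genes named are the members, the fixed lists, the 3 listed genes most like each member, and those just inside the fold threshold. No locus identifier of the members matched the RefSeq gene table, so no position or sequence is given. Contrasts between the stages over all probe sets and set tests were not run, because the members cannot be read in that table. Same-numbered SD and LD arrays were checked for shared deviations from their group means over the probe sets kept. The correlations were 0.22, 0.29 and 0.51 at P and 0.20, -0.0015 and 0.32 at G, so all those at P lay above a bound of 0.1. Arrays of unlike numbers were not compared, so these values alone do not show that the numbers mark pairs.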

Additional observations from a re-analysis of the deposited data

How the results depend on the processing

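Since no SD array of the 3 genes overlapped an LD array, their ratios had to stay above 1 with other averages or fewer arrays, and only their size is informative. Without repeat 2 of both groups, an alternative chosen after seeing the data, the ratios were 2.71 for OsLHY, 2.62 for the CCA1-like MYB gene, and 4.45 at G and 9.44 at P for the MYB gene. With geometric means the MYB gene had 3.03 at G and 6.16 at P. With the repeat number as a block the log2 differences were the same by construction, 1.30, 1.20 and 1.60 at G and 2.62 at P, and the standard errors were 0.18, 0.20, 0.43 and 0.47. With a stricter limit on the ratio, 2.5 or more and 0.4 or less, 3 of the 16 clock genes were listed at G in place of 6. The MYB gene was the one higher. Over all genes listed at G, the same limit left 21 higher and 33 lower, in place of 57 and 48. At P it left 2 of the 16 clock genes in place of 3. Over all genes listed at P, it left 75 higher and 50 lower, in place of 98 and 103. In the table of all probe sets, 168 of those kept at G and 315 at P were at least 2-fold higher in SD with an unadjusted limma p under 0.05. Without the filter on dim probe sets there were 867 and 1353, and at P there were 131 with the signals as deposited and 196 after centring the arrays on their medians. With 1 array left out the counts ran from 152 to 295 at G (295 without G-SLD2 repeat 2) and from 238 to 657 at P (657 without P-SSD2 repeat 3 and 503 without P-SLD2 repeat 2). With the repeat block they were 215 and 444. The planned contrasts between stages over all probe sets were not run, since they give no value for these genes.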
